A study of Mus musculus with 23 samples.

Results

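GAS6 and protein S are secreted ligands that bridge phosphatidylserine on dying cells to 3 receptor tyrosine kinases, Tyro3, Axl and Mertk, together called the TAM receptors. Both ligands carry a Gla domain that needs vitamin K to bind the lipid, GAS6 binds all of the receptors, and protein S (gene Pros1) binds Tyro3 and Mertk. In blood-forming tissue and in macrophages the receptors are known for the uptake of apoptotic cells and for damping innate immune signals. The 5 genes Gas6, Pros1, Axl, Mertk and Tyro3 were followed here through 4 stages of mouse blood development in culture. They were found through the RefSeq identifier of each array probe, with the probe of highest mean signal taken for each gene, and all 5 were among the 15246 genes tested, of 20145 genes with a probe. The family was selected on the log2 change of Gas6 between induced and uninduced cells of the first stage, so values from that comparison are given as a description without a test.

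RNA was measured on 23 single-colour arrays from 1 mouse embryonic stem cell line (strain label C57BL/6), in which doxycycline (Dox) switches on HA-tagged human RUNX1-ETO, the fusion protein of t(8;21) leukaemia, on a RUNX1 wild-type background. Haemogenic endothelium (HE, sorted as KIT+ Tie2+ CD41-), the next stage HE2 (KIT+ Tie2+ CD41+) and progenitors (KIT+ Tie2- CD41+) came from blast cultures induced on day 1, or left without Dox. Myeloid progenitors came from KIT+ CD41+ cells put into expansion medium with cytokines, with or without Dox for 12 h. HE, HE2 and myeloid progenitors had 3 arrays with and 3 without Dox, and progenitors had 2 and 2. A further array of uninduced progenitors is named a technical replicate in its title and was kept out of the fit of 22 arrays. No cells given Dox without the transgene were analysed here, so Dox and RUNX1-ETO cannot be told apart, and every group carries the same transgene.

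Between 48.8% and 78.4% of the spots on an array were well above background. The probe for Runx1t1, the mouse gene for ETO, was higher with Dox by 1.24 (SE 0.34) on the log2 scale in HE, where it did not pass the call rule. The rise was 2.08 in HE2 and 3.97 in progenitors, and it was 2.06 in the myeloid progenitors. Itga2b, which encodes CD41, had log2 intensities from 9.49 to 11.46 in uninduced HE although these cells were sorted as CD41-, and its probe was well above background on all 3 of those arrays. All myeloid progenitor arrays lay on slide 3, together with the technical replicate and 1 induced progenitor array, while HE and HE2 were spread over slides 1 and 2.

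The promoters of Gas6 and Axl are shown because these were the 2 members called lower with Dox in HE2, and RUNX1-ETO carries the DNA-binding domain of RUNX1. Each runs from 250 bases before to 50 bases after the annotated start, in the direction of the gene (RefSeq, GRCm38.p6), with RUNX letters in capitals.
Gas6, chr8:13494486-13494785, minus strand: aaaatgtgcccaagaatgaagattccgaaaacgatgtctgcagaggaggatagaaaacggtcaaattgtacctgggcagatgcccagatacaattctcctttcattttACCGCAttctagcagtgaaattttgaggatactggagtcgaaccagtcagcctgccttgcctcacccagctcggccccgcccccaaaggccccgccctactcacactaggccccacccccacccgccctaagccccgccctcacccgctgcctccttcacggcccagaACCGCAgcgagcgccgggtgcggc
Axl, chr7:25788684-25788983, minus strand: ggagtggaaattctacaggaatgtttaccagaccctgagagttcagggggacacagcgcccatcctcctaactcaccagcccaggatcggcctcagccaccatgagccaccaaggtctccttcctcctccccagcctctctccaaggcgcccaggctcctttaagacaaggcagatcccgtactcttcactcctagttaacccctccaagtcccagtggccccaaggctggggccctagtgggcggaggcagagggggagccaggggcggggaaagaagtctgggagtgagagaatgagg

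The letters TGTGGT and TGCGGT, which spell RUNX motifs, and GGGCGG, a GC box, were searched on both strands. The Gas6 window held TGCGGT 2 times, read on the opposite strand, beginning at -142 and 27 from the start, and neither match overlapped another motif searched. The windows of Axl, Pros1, Mertk and Tyro3 held neither RUNX word. Of 32851 promoter windows, 22.4% held at least 1 of the RUNX words and 6.45% held TGCGGT. GC boxes numbered 4 in Gas6, 5 in Pros1, 2 in Axl, 4 in Mertk and 6 in Tyro3, and 35.7% of all windows held at least 1.

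Gas6 was the member with the largest change in HE. Its log2 intensities in uninduced HE were 14.71, 15.15 and 15.06, and in induced HE they were 11.39, 11.69 and 10.67. No array of the induced group came near the uninduced ones, and the difference of -3.72 (SE 0.30), or 13.2-fold, was the lowest of all 15246 genes. The fall was -3.54 within slide 1 and -3.87 within slide 2. These values chose the family and support nothing about it.

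In HE2 the Gas6 values were 14.09, 14.25 and 13.60 without Dox and 12.06, 12.74 and 12.44 with Dox. The groups did not overlap, and Gas6 fell by 1.57 on the log2 scale (SE 0.30, limma adjusted P = 0.00128), a 2.96-fold difference. Uninduced HE2 arrays deviated together with the uninduced HE arrays of the same number, so this test is not fully independent of the choice of Gas6. The fall was -2.11 within slide 1 and -1.01 within slide 2. In progenitors the values were 12.05 and 11.44 without Dox and 11.41 and 10.74 with Dox, a difference of -0.67 (SE 0.37, adjusted P = 0.326) with a 95% interval from -1.44 to 0.10. In myeloid progenitors they were 9.07, 9.92 and 8.97 without Dox and 9.72, 9.65 and 9.87 with Dox, and these groups overlapped. The change there was 0.43 (SE 0.30, adjusted P = 0.428), with an interval from -0.20 to 1.06.

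**Figure D1:**
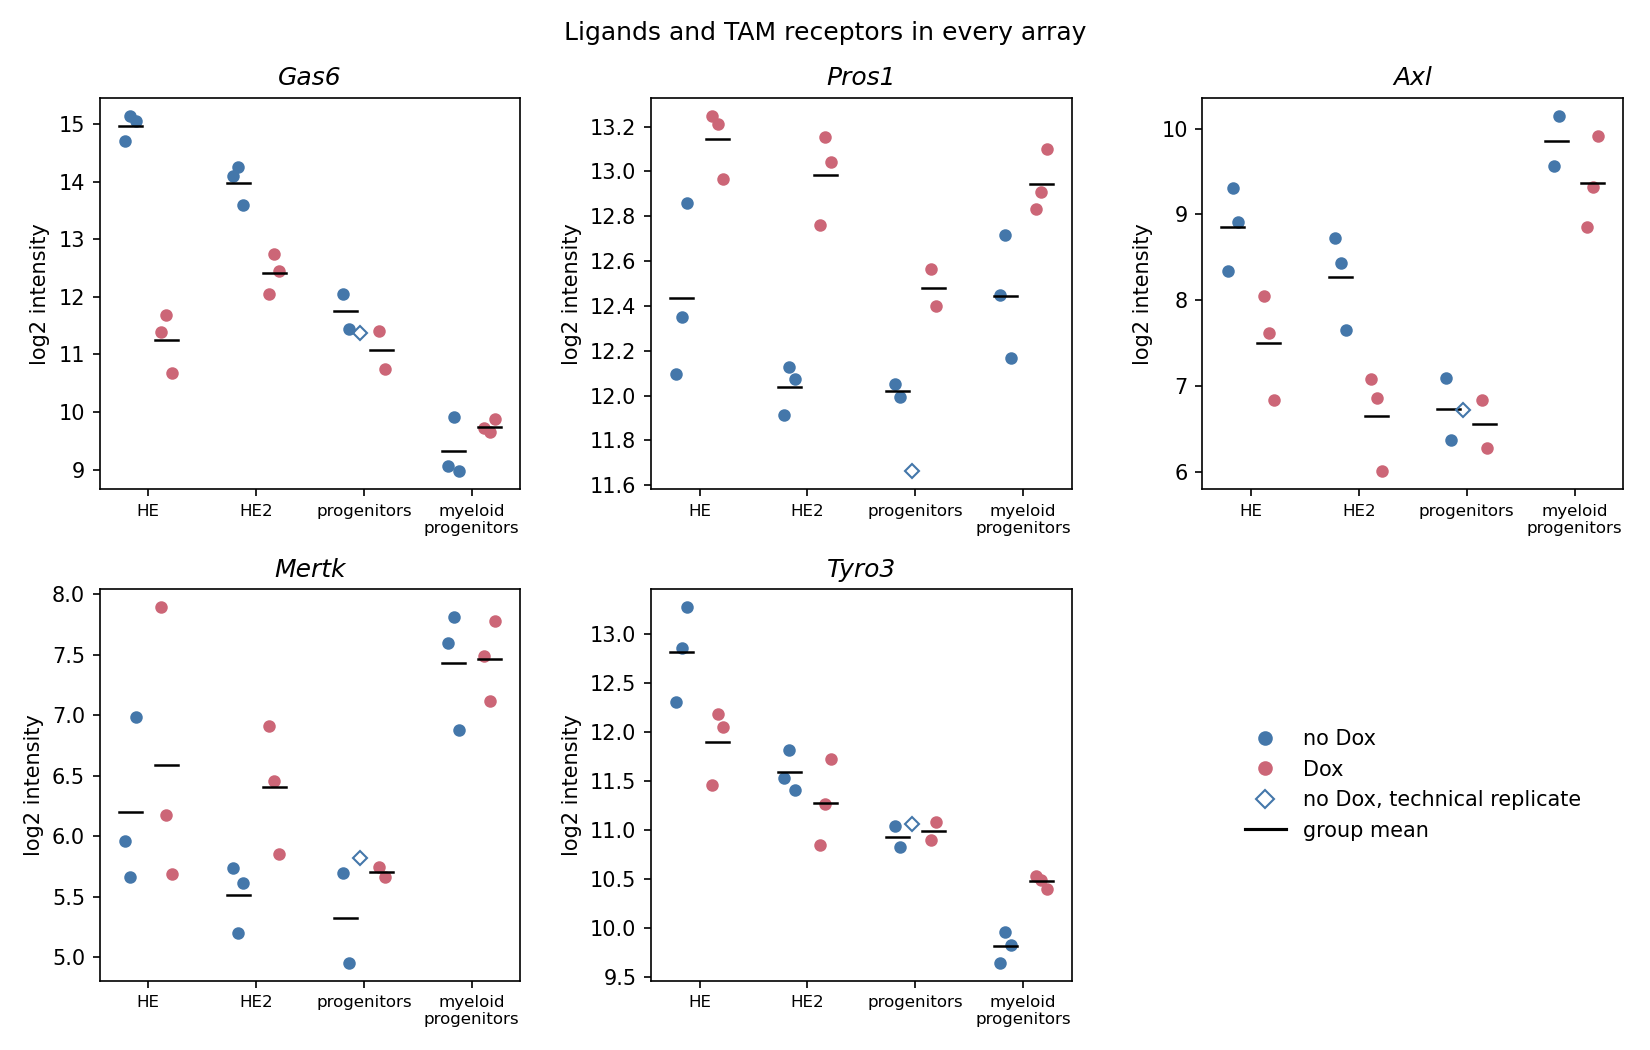
Log2 intensity of each member (vertical axis, own scale per gene) in every array at the 4 stages; points are arrays, black lines group means, and the open diamond is the technical replicate left out of the fit. Gas6 in HE lies between 14.71 and 15.15 without Dox and between 10.67 and 11.69 with Dox, while in myeloid progenitors the groups overlap.

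The Dox response of Gas6 in myeloid progenitors was higher than that in HE2 by 2.00 on the log2 scale (SE 0.42, adjusted P = 0.0154), where 2.19% of genes were called. As this difference contains the HE2 response, its test too is not fully independent of the choice of Gas6. The same test between progenitors and HE2 gave 0.90 (SE 0.47, adjusted P = 0.675) and was not called, against 0.636% of genes, and no other member was called there. At an unadjusted P under 0.05, where the share of all genes was not counted, limma gave Axl alone (1.45, adjusted P = 0.569). The myeloid cells were induced for 12 h in another medium and lay on another slide, and the part of these in the difference cannot be told apart. The difference of 2.15 (SE 0.42) between the responses in HE2 and HE is a description only, as it rests on the HE arrays.

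Among the receptors Axl was lower with Dox in the early stages. Its values in HE were 8.34, 9.31 and 8.91 without Dox and 8.06, 7.62 and 6.84 with Dox, a difference of -1.35 (SE 0.40) that is not tested here. In HE2 they were 8.73, 8.43 and 7.65 without Dox and 7.08, 6.86 and 6.00 with Dox. All induced HE2 arrays were below all uninduced ones, and Axl fell by 1.62 (SE 0.40, adjusted P = 0.00865), or 3.08-fold. Within slides the change was -1.50 and -1.22. The call was lost without uninduced HE2 array 1 (-1.40), uninduced array 2 (-1.54), induced array 2 (-1.73) or induced array 3 (-1.30), and with slide as a block (-1.42, adjusted P = 0.0119).

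No change of Axl with Dox was called at the later stages. In progenitors its values were 7.09 and 6.37 without Dox and 6.84 and 6.28 with Dox, a difference of -0.17 (95% interval from -1.20 to 0.85). In myeloid progenitors they were 9.56 and 10.15 without Dox, the spot on the third array being an outlier that was dropped, and 8.85, 9.32 and 9.91 with Dox. That difference was -0.49 (SE 0.44, adjusted P = 0.573), and the groups overlapped.

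Pros1, the other ligand, had a higher group mean with Dox in every stage, but no change reached 2-fold. In HE2 the values were 11.91, 12.13 and 12.07 without Dox and 12.76, 13.15 and 13.04 with Dox, a difference of 0.95 (SE 0.19, adjusted P = 0.00179) or 1.93-fold. The differences were 0.71 in HE (not tested, 1.02 within slide 1 and 0.23 within slide 2), 0.46 (adjusted P = 0.282) in progenitors and 0.50 (adjusted P = 0.0923) in myeloid progenitors. Without induced HE2 array 1 the HE2 change was 1.06 and passed the call rule.

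Tyro3 was called in no Dox comparison. Its values in HE were 12.31, 12.86 and 13.27 without Dox and 11.46, 12.19 and 12.05 with Dox, a difference of -0.91 (SE 0.25, not tested). In HE2 the difference was -0.31 (SE 0.25), in progenitors 0.06 (SE 0.30) and in myeloid progenitors 0.66 (SE 0.25, adjusted P = 0.0866), none of them called. The response in myeloid progenitors minus that in HE2 was 0.97 (adjusted P = 0.213). In myeloid progenitors every induced array, from 10.40 to 10.54, lay above every uninduced one, from 9.65 to 9.97. By the other Tyro3 probe, which is dimmer, that change was 0.19 (adjusted P = 0.888), and the groups overlapped.

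Mertk, the receptor best known from phagocytes, was near background, with its spot well above it on 19 of 23 arrays. In HE it ran from 5.66 to 6.99 without Dox and from 5.68 to 7.89 with Dox, and the change of 0.38 had the sign of slide 1 (2.08) but not of slide 2 (-1.06). In HE2 the change was 0.89 (SE 0.46, adjusted P = 0.211), in progenitors 0.38 (SE 0.56) and in myeloid progenitors 0.03 (SE 0.46). No Dox comparison of Mertk was called.

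**Figure D2:**
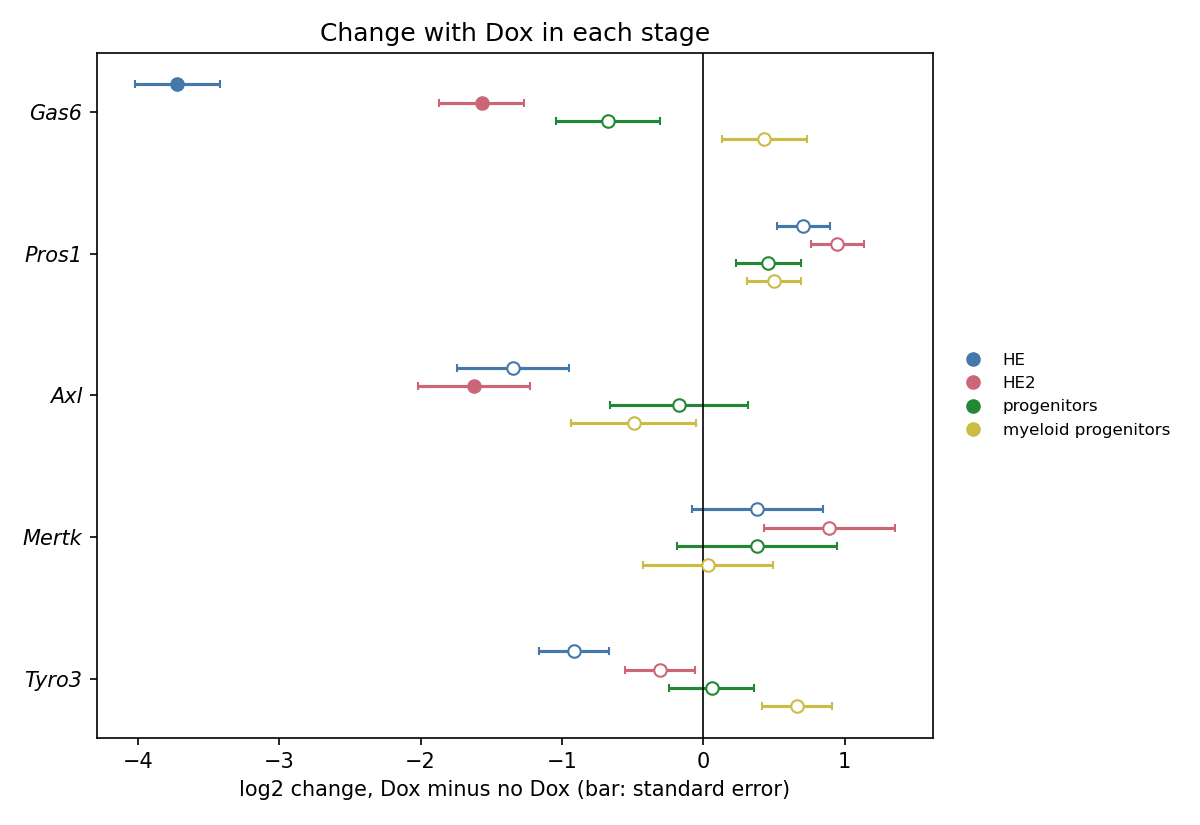
Log2 change with Dox (horizontal axis, bars are standard errors) of each member at the 4 stages; filled points passed the call rule. Gas6 runs from -3.72 in HE to 0.43 in myeloid progenitors, and Pros1 lies to the right of 0 at each stage.

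A gene was called when P was at most 0.001 and the change at least 2-fold. In HE2, 2 of 5 members were called, both lower, and 7.16% of all genes tested were called. In HE 1 of 5 was (7.07% of genes), which is the comparison that chose the family, and without uninduced HE array 1 there were 2. None was called in progenitors (3.74%) or in myeloid progenitors (6.29%). At an unadjusted P under 0.05 limma gave none in progenitors, and Pros1 (adjusted P = 0.0923) and Tyro3 (adjusted P = 0.0866) in myeloid progenitors. The share of all genes under that looser threshold was not counted. The median change of the 5 members was -0.91 for HE, -0.31 for HE2, 0.06 for progenitors and 0.43 for myeloid progenitors, and that of all genes lay between -0.04 and -0.01.

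Markers of other cell types moved beside Gas6 and Axl. Of the 3 smooth muscle genes measured, Acta2, Tagln and Cnn1, all were called lower with Dox in HE2 (median change -2.48). In HE all had lower means (median change -1.68), 1 of them called, and none was called in progenitors or myeloid progenitors. Their mean level ran from 11.99 to 13.98 in uninduced HE2 and from 10.52 to 10.65 in induced HE2. Both epithelial genes measured, Krt8 and Krt18, were called lower in HE2 as well, and Krt18 in HE. Of the 6 endothelial genes, all had higher means in induced HE2 and 2 were called, and none was called in HE. Their list means in HE2 ran from 11.04 to 12.10 without Dox and from 12.58 to 13.39 with Dox. With Dox 2 of them were also called higher in progenitors (median change 1.59) and 5 in myeloid progenitors (median change 2.19). Of 6 fibroblast or mesenchyme genes Col1a1, a fibrillar collagen gene, fell by 2.07 in HE and fell by 3.26 in HE2, while Col3a1 rose by 1.83 in HE. Of 3 pericyte genes Pdgfrb, a receptor for platelet-derived growth factor, fell by 1.82 in HE and fell by 2.57 in HE2. Of 8 macrophage genes Csf1r fell by 1.77 and Cd14 fell by 2.31 in HE2, and Mrc1, the mannose receptor, rose by 1.69 in HE and 3.45 in HE2. Of 7 haematopoietic genes Spi1, which encodes PU.1, fell by 2.74 and Coro1a fell by 1.35 in HE2, where Gata1 rose by 2.07. Itga2b, also one of the sort markers, fell by 3.21 in HE, to a mean of 7.49. Mpo, a granule gene, and Actc1, a cardiac muscle gene, were also called lower in HE2, and Myl7, a cardiac gene, was called higher in HE. The part of these markers in the members' changes was not tested. In bulk RNA, fewer cells of a type and less RNA per cell cannot be told apart.

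**Figure D3:**
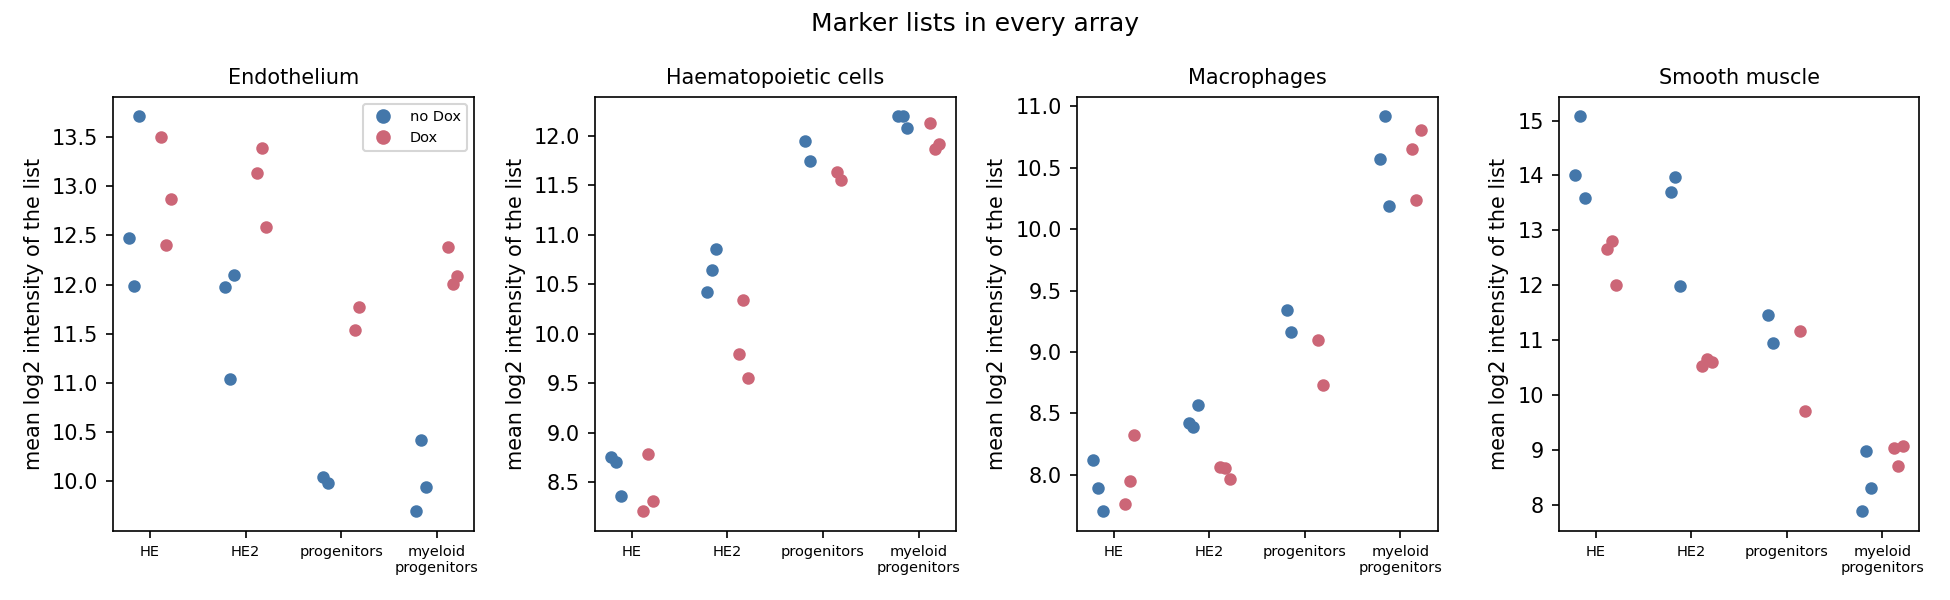
Mean log2 intensity of 4 marker lists (vertical axis) in each array of the 4 stages, with and without Dox. Smooth muscle markers in HE2 are between 11.99 and 13.98 without Dox and between 10.52 and 10.65 with Dox, and macrophage markers are highest in myeloid progenitors.

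Without Dox the ligand Gas6 fell from HE2 to progenitors and at the last step, the receptor Tyro3 fell from HE to HE2 and at the last step, and Axl and Mertk rose at the last step. Steps that follow each other share the arrays of the stage between them, as the Dox comparisons and the steps do. From HE2 to progenitors Gas6 fell by 2.23 (SE 0.34, adjusted P = 0.000189) or 4.70-fold, the only called member, against 5.39% of genes. As this step contains the uninduced HE2 arrays, its Gas6 test is not fully independent of the choice of Gas6. Axl fell by 1.54 there (SE 0.44, adjusted P = 0.0390) and did not pass the call rule. From HE to HE2 Tyro3 fell by 1.22 (SE 0.25, adjusted P = 0.00332), from 12.31 to 13.27 in HE to 11.41 to 11.82 in HE2, with 5.03% of genes called. Without uninduced HE array 3 this was -0.99 and not called, and by the dimmer of the 2 Tyro3 probes it was -1.002 (adjusted P = 0.209). That probe had a mean log2 intensity of 6.78, against 11.24 for the probe used, and across 22 arrays their correlation was 0.44. From HE2 to progenitors the change of Tyro3 was -0.65 (SE 0.28, adjusted P = 0.199), not called, and by the other probe it was 0.45. Gas6 itself was lower in uninduced HE2 than in HE by 0.99, a description because the HE arrays chose it.

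From progenitors to myeloid progenitors without Dox 4 of 5 members were called, with 13.9% of genes called. Axl rose by 3.13 (SE 0.49, adjusted P = 0.000130), 8.73-fold, from 7.09 and 6.37 to 9.56 and 10.15. Mertk rose by 2.10 (SE 0.51, adjusted P = 0.00461), from 5.69 and 4.95 to 7.59, 7.81 and 6.88. Of the 2 uninduced progenitor arrays 1, at 4.95, was not well above background for Mertk, so the size of this rise rests partly on a level at background. Gas6 fell by 2.43 (SE 0.34, adjusted P = 3.16e-05) and Tyro3 by 1.12 (SE 0.28, adjusted P = 0.00486). The Mertk call was lost without uninduced myeloid array 1 (2.02) or 2 (1.91) or progenitor array 1 (2.47) or 2 (1.73), and the Tyro3 call without any 1 of the 5 arrays of this comparison. By the other Tyro3 probe the change was -0.57 (adjusted P = 0.418) and by the mean of both probes -0.85 (adjusted P = 0.0583), neither of them called.

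Stage and slide were largely joined here, as the uninduced progenitors in the fit were on slides 1 and 2. The technical replicate on slide 3 had 11.38 for Gas6, 6.72 for Axl, 5.82 for Mertk, where it was not well above background, and 11.06 for Tyro3. The uninduced myeloid arrays of that slide had 8.97 to 9.92 for Gas6, 9.56 and 10.15 for Axl, 6.88 to 7.81 for Mertk and 9.65 to 9.97 for Tyro3, so each gene differed in the same direction within the slide. With slide as a block Axl kept its call (3.39, adjusted P = 0.0144), and Gas6 (-1.83, adjusted P = 0.120), Mertk (1.98, adjusted P = 0.345) and Tyro3 (-1.14, adjusted P = 0.234) did not.

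With Dox, Axl rose by 2.81 (SE 0.44, adjusted P = 0.000290) from progenitors to myeloid progenitors and Gas6 fell by 1.33 (SE 0.34, adjusted P = 0.0104), with 7.36% of genes called. Mertk was higher by 1.76 (SE 0.51, adjusted P = 0.0240) and was not called. From HE2 to progenitors Gas6 fell by 1.34 (SE 0.34, adjusted P = 0.0108), with 7.29% of genes called, and this call was lost without induced HE2 array 2 (-1.18) or 3 (-1.32) or induced progenitor array 2 (-1.01). It was also lost with slide (-1.09, adjusted P = 0.168), scan date (-1.01, adjusted P = 0.161) or replicate (-1.41, adjusted P = 0.0177) as a block. The Gas6 call from progenitors to myeloid progenitors was lost without any 1 of the 3 induced myeloid arrays (-1.32, -1.28 and -1.39) or induced progenitor array 1 (-0.997), and with slide (-0.997, adjusted P = 0.179), scan date (-0.997, adjusted P = 0.168) or replicate (-1.26, adjusted P = 0.0283) as a block. From HE to HE2 no tested member was called (3.1% of genes), and Gas6 was higher by 1.16 as a description. At an unadjusted P under 0.05, where the share of all genes was not counted, limma gave Axl (adjusted P = 0.260) and Tyro3 (adjusted P = 0.173).

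**Figure D4:**
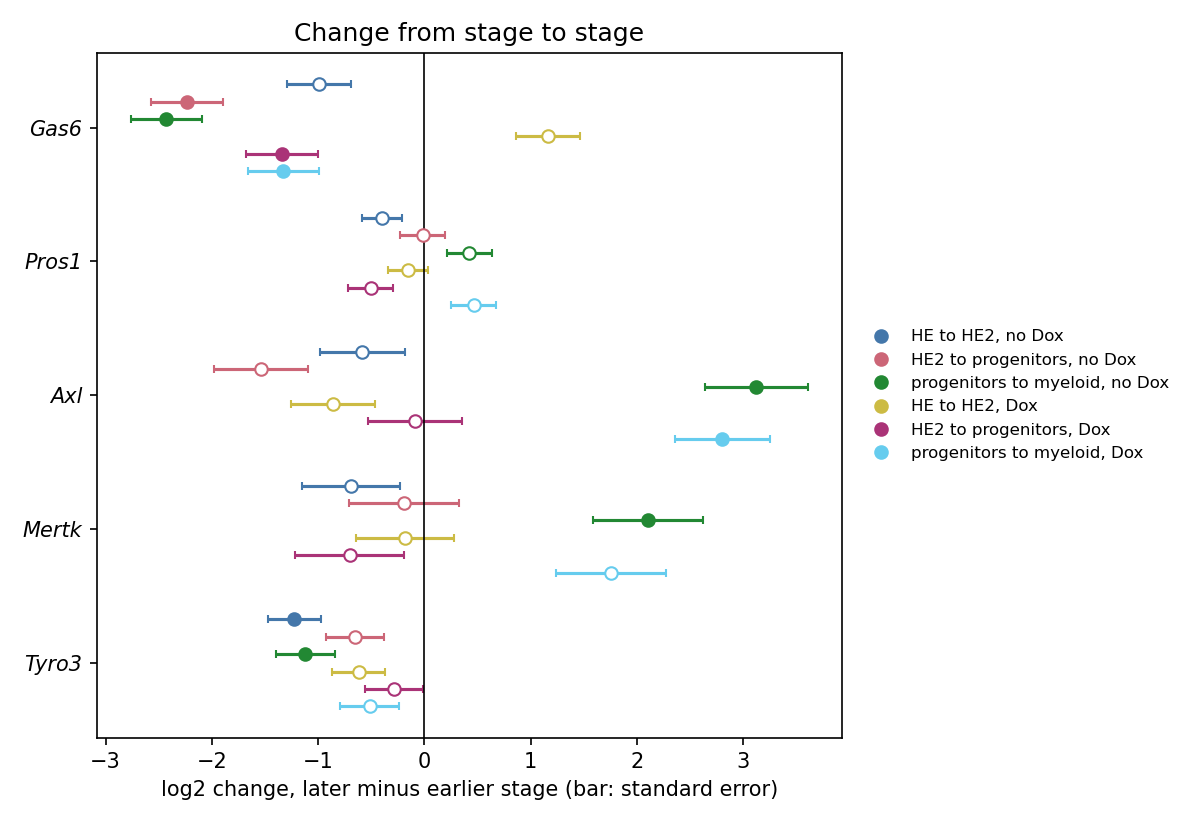
Log2 change of each member from one stage to the next, with and without Dox (horizontal axis, bars are standard errors); filled points passed the call rule. Axl rises from progenitors to myeloid progenitors by 3.13 without Dox and 2.81 with Dox, while Gas6 falls by 2.43 and 1.33.

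Some macrophage markers rose at the last step. Of 8 measured, 4 were called higher from progenitors to myeloid progenitors both without and with Dox. Over all genes 13.9% were called at this step without Dox and 7.36% with Dox, in either direction. Csf1r, the receptor for macrophage colony-stimulating factor, rose by 2.18 and 2.91, and Adgre1, which encodes F4/80, rose by 2.48 and 2.58. Without Dox Cd14 and Mrc1 had lower means after the step (11.46 to 10.83 and 5.88 to 5.71), and Itgam changed little (12.61 to 12.73). The mean of the list ran from 9.16 to 9.34 in uninduced progenitors and from 10.19 to 10.92 in uninduced myeloid progenitors. Of 3 smooth muscle genes, 2 were called lower at this step without Dox (median change -3.52) and 1 with Dox (-1.89). Of 4 granule genes, 2 were called lower without Dox (median change -1.41) and 1 with Dox. Stage and slide were partly joined for these markers as well. The part of these markers in the members' changes at this step was not tested.

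The order of the group means differed between the genes. Gas6 ran from 14.97 ± 0.23 (SD, n = 3) in uninduced HE down to 9.32 ± 0.52 (SD, n = 3) in uninduced myeloid progenitors, and its neighbours in that order overlapped between uninduced progenitors, induced HE and induced progenitors, and between the myeloid groups. Axl was highest in uninduced myeloid progenitors, 9.86 ± 0.42 (SD, n = 2), and lowest in induced progenitors, 6.56 ± 0.40 (SD, n = 2), and every neighbouring pair overlapped. Every neighbouring pair of Mertk overlapped too. Pros1 spanned from 13.14 ± 0.15 (SD, n = 3) in induced HE to 12.02 ± 0.04 (SD, n = 2) in uninduced progenitors. Tyro3 went from 12.81 ± 0.48 (SD, n = 3) in uninduced HE to 9.82 ± 0.16 (SD, n = 3) in uninduced myeloid progenitors.

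Over the arrays the pattern of Gas6 was most like that of Cables1 (r = 0.96), Macroh2a3 (0.96) and Tmem47 (0.96). Tyro3 was most like Sall1 (0.95), Col1a2 (0.95), a fibrillar collagen gene, and Tmem98 (0.94). Axl was most like Anxa1 (0.93), Emp1 (0.91) and Ackr3 (0.91) over 21 arrays, Pros1 like Dram2 (0.96), Gnpda1 (0.90) and Maf (0.90), and Mertk like Sat1 (0.93), Trak2 (0.89) and Gm3020 (0.88). Between members r was 0.84 for Gas6 with Tyro3, 0.62 for Axl with Mertk, 0.56 for Pros1 with Mertk and -0.53 for Gas6 with Mertk, and the other pairs lay between -0.45 and 0.06. These values describe 22 arrays that share slides, stages and induction, unless 21 is given.

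Genes around the ligands and receptors were taken from 9 lists with 98 genes, of which 90 were tested. Of these, 10 rose and 5 fell with Dox in HE, 11 rose and 4 fell in HE2, 6 rose in progenitors and 9 rose at the myeloid stage, which is 16.7%, 16.7%, 6.67% and 10% of those tested. Over all genes tested the shares called were 7.07%, 7.16%, 3.74% and 6.29%. The lists were chosen with earlier results of these data known, so setting these shares side by side is a description only. Without induced HE2 array 3 the count in HE2 was 9 instead of 15. With slide, scan date or replicate as a block, the count in progenitors was 4 each time. At the myeloid stage it was 8, 8 and 7, so the counts of both later stages were lower than in the main fit. In the same order the counts were 14, 14 and 14 in HE and 13, 14 and 12 in HE2. The share of all genes called with these blocks is not given here. In the main fit the median change of the 90 genes lay between -0.02 and 0.22.

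Among the other bridging molecules for apoptotic cells, of which 12 were tested, 3 rose and 1 fell in HE2. Edil3, a phosphatidylserine-binding matrix protein, rose in every stage, by 1.43 in HE and 2.32 in HE2, then by 2.44 in progenitors and 2.58 in the myeloid cells. Fn1, fibronectin, rose by 2.13 in progenitors and 2.07 in myeloid progenitors. Lgals3, galectin-3, rose by 1.94 in HE, and Anxa1, annexin A1, fell by 1.76 in HE2.

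Among 15 other phosphatidylserine and apoptotic-cell receptors Stab1, a scavenger receptor that binds phosphatidylserine, rose by 2.78 in HE2 and 4.26 in progenitors, and by 3.71 in the myeloid cells. Itgb5, the beta 5 integrin that pairs with the alpha v chain, fell by 2.14 in HE and fell by 2.27 in HE2. Cd36 rose by 1.2 in HE, 1.86 in HE2 and 1.29 in myeloid progenitors, and Olr1 fell by 1.42 in HE2.

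Of 5 vitamin K cycle genes, Nqo1 (1.55) and Aifm2 (1.12) rose in HE and the others were not called at any stage. Of 9 other Gla protein genes, Mgp rose by 1.37 and Prrg1 fell by 1.54 in HE. Of 11 engulfment signalling genes, Abca1, a lipid exporter, rose by 1.49 in HE and 1.24 in HE2, Abca7 rose by 1.11 in HE, Vav1 fell by 1.34 in HE and fell by 1.29 in HE2, and Vav3 rose by 1.17 in HE2 and 1.09 in myeloid progenitors.

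Of 18 TAM adaptors and effectors, Lck fell by 1.27 in HE, Ifnar1, an interferon receptor chain, rose by 1.07 in HE2, and Socs1, a suppressor of cytokine signalling, rose by 1.45 in myeloid progenitors. Of 7 nuclear receptors Nr1h3, which encodes LXR alpha, rose by 1.12 in HE. Of 4 shedding genes Timp3, an inhibitor of the proteases that cleave surface receptors, rose by 1.34 in HE and 1.83 in HE2, then by 1.94 in progenitors and 2.00 in the myeloid cells. Of 9 genes of phosphatidylserine exposure, Atp11a, a flippase gene, rose by 1.68 in HE2 and 1.28 in progenitors.

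**Figure D5:**
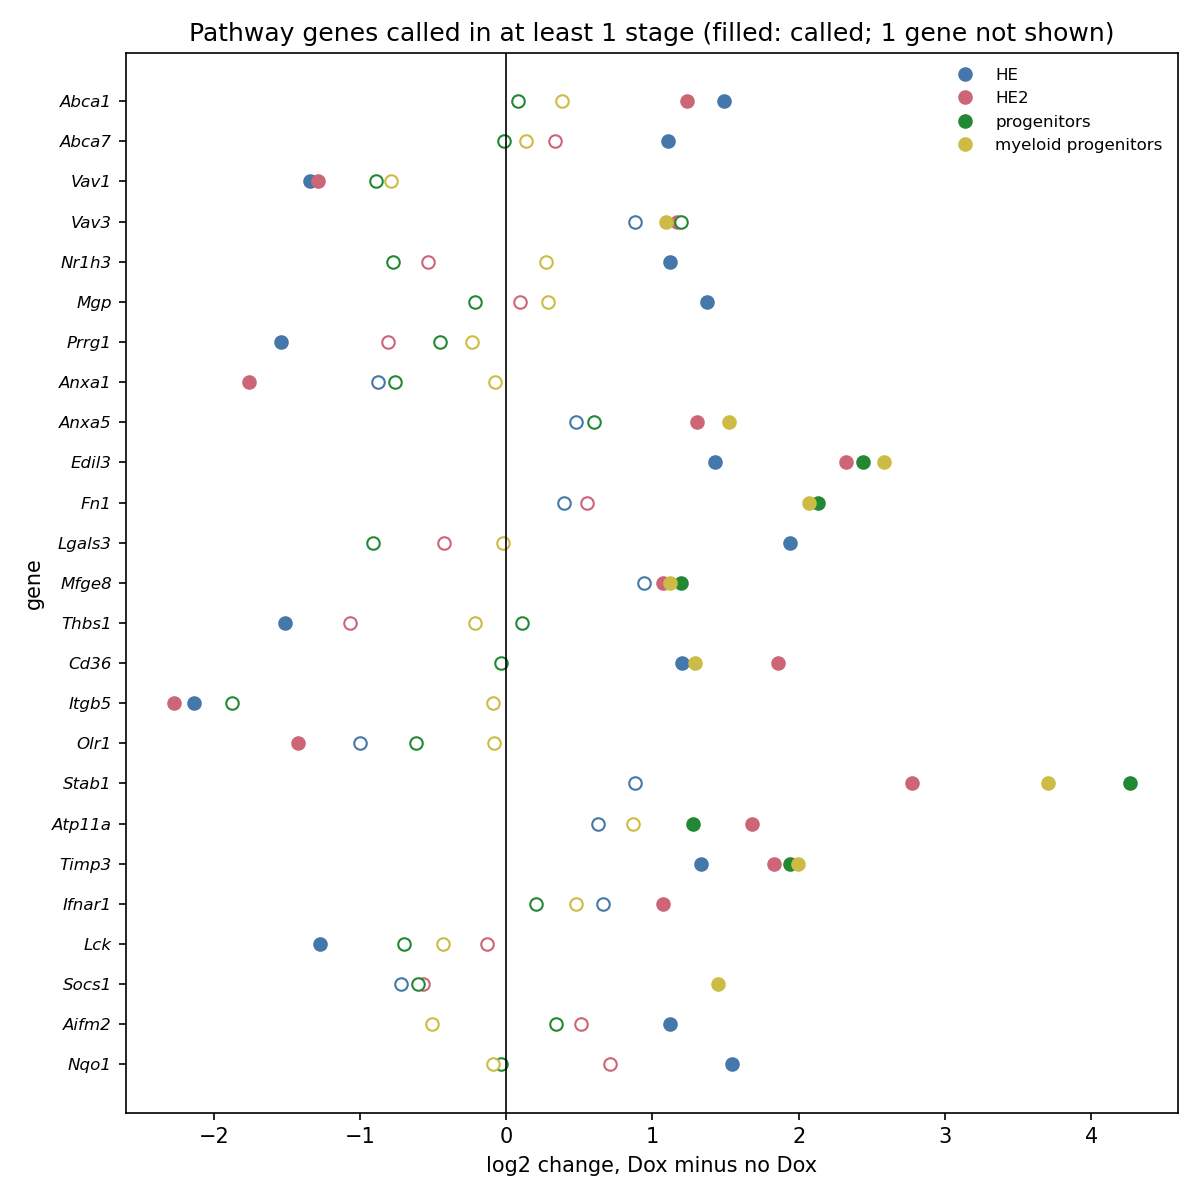
Log2 change with Dox (horizontal axis) of the pathway genes called in at least 1 stage (vertical axis; 1 such gene is not shown), with filled points for the stages where it passed the call rule. Stab1 reaches 4.26 in progenitors and Itgb5 lies at -2.27 in HE2.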

How the data were processed

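The authors deposited Agilent Feature Extraction text files of 1-colour arrays with median spot and background intensity, flags and a processed intensity, and a table of log2 values that they normalized. The labels give Feature Extraction 10.7.1.1, and the file headers 10.7.3.1. Here the median intensities were background-corrected with normexp (offset 16), quantile normalized over 23 arrays and put on the log2 scale with limma 3.58.1 in R 4.3.3, as the study's methods describe, outlier spots were dropped and probes at or above 6.5 on at least 1 array were kept. The files hold no mean signal, so medians were used. Of 55681 probes, 26582 matched a symbol through RefSeq (GRCm38.p6 table, names only). A fit of 8 group means on 22 arrays left 14 residual degrees of freedom. P-values were adjusted by Benjamini-Hochberg over 15246 genes, and a call needed P of at most 0.001 and 2-fold. Standard errors are moderated. The number of arrays limits the precision. The labels name replicates as biological but not their cultures. The third induced myeloid array is a biological replicate by its title and a technical one by its source name.

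For HE to HE2 without Dox, arrays of the same number deviated together (r = 0.39, 0.80 and 0.61 over genes), so their numbers pair them. The main fit did not use this pairing. With replicate as a block 1 member was still called in that step. Named genes were all members, up to 4 called genes per list with the largest change, 3 genes per member most alike over the arrays (SD at least 0.5) and Runx1t1. The members and lists were chosen with earlier results of these data known. The values of 1 called list gene are not reported here, though it is in the counts of its list. The fit was tested on simulated data. Alternatives were the offset, no correction, 75th percentile scaling, the deposited log2 values, separate normalization, filters, probe choice, thresholds, smaller fits, slide, scan date and replicate blocks, and leaving out arrays. Keeping outlier spots was added after seeing the data.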

Additional observations from a re-analysis of the deposited data

Results flagged for a closer look

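The Dox response of Gas6 differed between HE2 and myeloid progenitors by a test of the difference itself. That test contains the HE2 response, so it is not fully independent of the choice of Gas6. Induction time, medium and slide differed along with stage, and their parts cannot be told apart. The response in myeloid progenitors minus that in HE2 was 2.00 on the log2 scale (SE 0.42, limma adjusted P = 0.0154), with Gas6 lower in 3 of 3 induced HE2 arrays and overlapping groups in myeloid progenitors. Over 27 alternatives the difference ran from 1.82 to 2.30 and passed the call rule in each, with adjusted P from 0.00539 to 0.0545.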

How the results depend on the processing

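Of the members called in the report, Gas6 kept its call under all 22 alternatives for Dox in HE2 and for HE2 to progenitors without Dox, and Axl under all 21 and 20 alternatives for the last step without and with Dox. No called change reversed. The cause of the changes below was not tested, and Mertk was well above background on 19 of 23 arrays.

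The number of members called with Dox in HE, 1, was 4 at adjusted P of at most 0.05. It was 2 by 2-fold change alone, with slide as a block or with the replicate block. That comparison chose the family, so these counts are a description only. With Dox in HE2, 2 became 1 with an offset of 50, the deposited log2 values, a fit restricted to the groups compared, slide as a block or outlier spots kept. From HE to HE2 without Dox, 1 became 0 with 75th percentile scaling, the mean of a gene's probes, the other probe of Tyro3 or a fit restricted to the groups compared. From HE2 to progenitors without Dox, 1 became 2 with 75th percentile scaling, adjusted P of at most 0.05, 2-fold change alone or the technical replicate added. With Dox, 1 became 0 in a fit restricted to the groups compared and with slide, scan date or replicate as a block. From progenitors to myeloid progenitors without Dox, 4 became 1 with slide or scan date as a block. With Dox, 2 became 1 with 75th percentile scaling, the deposited values and slide, scan date or replicate as a block. By 2-fold change alone 1 response, not 0, differed between HE2 and progenitors, and 2, not 1, between HE2 and myeloid progenitors. The share of all genes called by adjusted P or by 2-fold change alone is not given here.

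Pathway genes called with Dox numbered 25 in HE, not 15, and 16 in myeloid progenitors, not 9, at adjusted P of at most 0.05. By 2-fold change alone they numbered 10 in progenitors, not 6. The share of all genes called under these looser rules is not given here, so the higher counts say nothing particular about the pathway genes. In a fit restricted to the groups compared the pathway genes called numbered 6 in HE and, in HE2, 8 instead of 15. With slide, scan date or replicate as a block they numbered 4 each time in progenitors, and 8, 8 and 7 in myeloid progenitors. With each array left out in turn they numbered 11 to 15 in HE and 7 in myeloid progenitors. Leaving out a progenitor array left its group without a replicate, so no such count is given for progenitors.

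Leaving out each array in turn gave 1 to 2 members called with Dox in HE, 1 to 3 in HE2, 0 to 1 from HE to HE2 without Dox, 0 to 1 from HE2 to progenitors with Dox, 2 to 3 from progenitors to myeloid progenitors without Dox and 1 to 2 with Dox, and 9 to 14 pathway genes in HE2. Where this left 1 progenitor array in a group, that array was assumed to vary like the other groups. With 75th percentile scaling the median of all genes moved to -0.21 with Dox in progenitors and to -0.30 from progenitors to myeloid progenitors without Dox, where it was -0.11. Apart from HE to HE2 without Dox, the numbers did not pair the arrays, and beside the counts named the replicate block took the 4 members called from progenitors to myeloid progenitors without Dox to 3.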
